A study of Mus musculus with 6 samples.

Results

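The Notch pathway genes described here are 10 genes taken by symbol from a bulk RNA sequencing table of injured mouse muscle: the receptors Notch1, Notch2, Notch3 and Notch4, the ligands Jag1 and Dll4, the DNA-binding effector Rbpj, and the target genes Hes1, Hey1 and Heyl. All 10 are among the 14016 rows of the table. The study compared quadriceps muscle of WT mice (labelled B6, 3 mice) with that of ΔdblGATA mice (labelled GATA-1 mutant, 3 mice), which lack eosinophils through a germline deletion of a site for GATA factors in the Gata1 promoter. Both groups received volumetric muscle loss, a surgical removal of part of the quadriceps, without any implant, and muscle was collected at day 7. In the paper's methods, control injuries of this kind were filled with sterile saline. The WT mice of the study were young adult female C57BL/6 mice, and the age and sex of the ΔdblGATA mice are not given in the sources used here.

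Notch receptors are single-pass membrane proteins that are activated by ligands on a neighbouring cell. Proteolytic cleavage then frees the intracellular part of the receptor, which moves to the nucleus, joins the DNA-binding protein RBPJ and turns on genes of the Hes and Hey families, most of which encode transcriptional repressors. In skeletal muscle, Notch signalling is known for holding satellite cells, the muscle stem cells, in quiescence, and it also acts in endothelial cells and in the mural cells that wrap blood vessels.

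The authors' table gives for each gene 1 mean level over both genotypes, in log2 CPM, where CPM is the read count of a gene scaled to a fixed library total. It is used here as a description of how strongly each gene was expressed in this injured muscle. Values per mouse were not analysed here, so no SD is given for any level, the genotypes were not compared, and no order between neighbouring genes can be set against the spread between mice. Because long transcripts yield more reads, levels of different genes were compared only after log2 of the transcript length in kilobases had been subtracted (log2 CPM per kilobase). In bulk tissue, fewer cells of a type and less RNA per cell cannot be told apart.

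RBPJ recognises DNA through the core letters TGGGAA. A promoter window of its own gene is shown because Rbpj was the one member among those matched whose windows held these letters. RefSeq promoter windows (GRCm38.p6) of 300 bases, 250 before and 50 after a start site, were matched for 7 members in 8 windows, and not for Hes1, Hey1 and Heyl. The stretch printed lies at chr5:53590096-53590345 on the plus strand and ends at the base before one RefSeq start site of Rbpj, with TGGGAA and its reverse complement TTCCCA in capitals.
Rbpj: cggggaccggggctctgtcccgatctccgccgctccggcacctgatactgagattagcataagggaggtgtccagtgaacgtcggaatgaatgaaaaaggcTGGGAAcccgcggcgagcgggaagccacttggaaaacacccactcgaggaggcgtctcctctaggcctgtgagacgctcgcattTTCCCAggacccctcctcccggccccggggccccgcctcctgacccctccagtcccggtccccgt
The matches begin 149 and 65 bases before that start site, the first on the plus strand and the second on the minus strand. A second, overlapping Rbpj window holds the latter match again, 205 bases before its own start site. Both start sites lie inside the Rbpj gene as annotated in GENCODE M21, which begins at 53466152, and that first position was not scanned. Matches on either strand were thus found in 2 of the 8 member windows, both of Rbpj, while 25.6% of all 32851 windows of the same length hold one. A match is a description of the letters and not a measured binding site. The member windows were rich in G and C, from 55.7% to 73.0% with a median of 65.8%, beside a median of 52.7% over all windows. They held from 5 CpG dinucleotides, in Notch4, to 41, in Notch2, with a median of 24, and all windows had a median of 7.

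The receptors were all expressed in the injured muscle, with Notch3 highest and Notch4 lowest among them. Notch3, which is known from the mural cells of vessels and also from satellite cells, had the authors' mean of 5.26 log2 CPM, or 38.3 CPM when taken off the log scale. Notch2 had a mean of 5.19 log2 CPM (36.5 CPM) and Notch1, long studied in satellite cell activation and in endothelium, had 4.97 log2 CPM (31.4 CPM). Notch4, a receptor best known from endothelial cells, had 4.07 log2 CPM (16.8 CPM). Their transcripts are long, from 6591 nt for Notch4 to 10500 nt for Notch2, so that their reads are spread over much sequence. Per kilobase, the level of Notch3 was 2.26 log2 CPM, that of Notch2 1.80, that of Notch1 1.73 and that of Notch4 1.35. Notch3 thus exceeded Notch4 by 0.91 on the log2 scale, a 1.87-fold difference, while Notch2 and Notch1 lay 0.07 apart. The order of these 2 receptors turned when the median length of the coding transcripts was used in place of the longest one, since Notch1 has a second, much shorter coding transcript and Notch2 has a single one. With that length Notch1 was at 2.65 and Notch2 at 1.80 log2 CPM per kilobase. Notch3 stayed highest and Notch4 lowest of the 4 receptors under each of the 3 lengths tried.

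In GENCODE M21 on GRCm38, Notch1 lies on chromosome 2 (26457903 to 26516663, minus strand), Notch2 on chromosome 3 (98013527 to 98150361, plus strand), and both Notch3 (32120820 to 32166852, minus strand) and Notch4 (34564268 to 34588503, plus strand) on chromosome 17. None of the members shares a 31-base word of its longest coding transcript with another member, so reads of the receptors are told apart at that length. Sequence is shared with other annotated genes, however: 14.1% of the words of Notch1 also occur in the overlapping genes 0610009E02Rik and Gm13568, annotated on the opposite strand, 6.67% of those of Notch3 and 4.39% of those of Notch2 occur elsewhere, and 0 of the 6561 words of Notch4 do. As the strand setting of the counting is not given in the sources used here, reads of Notch1 and of the genes opposite to it cannot be told apart where they overlap.

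Of the ligands, Jag1 was the higher, and Dll4 was the lowest of all 10 members per kilobase of the longest coding transcript. With the coding sequence as the length Dll4, at 2.06, was above Notch1 at 2.05 and Notch4 at 1.51. Jag1, a ligand of the Jagged class made by several cell types of muscle and vessel wall, had the authors' mean of 4.35 log2 CPM (20.4 CPM) and 1.86 log2 CPM per kilobase. Dll4, a Delta-class ligand of endothelial tip cells and arteries, had 3.10 log2 CPM (8.57 CPM) and 1.19 log2 CPM per kilobase. The difference between them was 0.67 on the log2 scale, or 1.59-fold, and 0.43 when the coding sequence was taken as the length, with Jag1 higher in both. Both genes lie on chromosome 2 (Jag1 at 137081456 to 137116644, minus strand, and Dll4 at 119325784 to 119335962, plus strand). Jag1 shares none of its 31-base words with other genes, and Dll4 shares 4.95% with Gm14207, which is annotated on the opposite strand.

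Rbpj, through which all 4 receptors act on DNA, had the authors' mean of 5.58 log2 CPM (47.7 CPM), and was second to Hes1 per kilobase at 3.12 log2 CPM. It lay above 64.8% of the 13945 genes with a length or level with them. Its level per kilobase exceeded that of Notch3, the highest receptor, by 0.86 on the log2 scale. This excess depends on the length used, and was 0.02 with the median length of coding transcripts and 2.45 with the coding sequence, which makes up only 1578 nt of a transcript of 5485 nt. Rbpj lies on chromosome 5 (53466152 to 53657362, plus strand). As 26.3% of its 31-base words are found also in a total of 965 other genes, part of its transcript is not unique. This was the largest share among the members, and its effect on the level of Rbpj was not tested.

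Among the target genes Hes1 was highest, Heyl intermediate and Hey1 lowest per kilobase of transcript. Hes1, a repressor of the basic helix-loop-helix class and a direct target of Notch in many tissues, had the authors' mean of 4.23 log2 CPM (18.7 CPM). Its transcript of 1468 nt is the shortest, and per kilobase it ranked first at 3.67 log2 CPM, above or level with 73.5% of all genes. Heyl, a Hey-family repressor known from mural cells and satellite cells, had 4.44 log2 CPM (21.7 CPM) and 2.26 log2 CPM per kilobase. Hey1, which acts together with Heyl to keep satellite cells undifferentiated, had 3.12 log2 CPM (8.71 CPM) and 1.85 log2 CPM per kilobase.
Hes1 exceeded Heyl by 1.41 and Hey1 by 1.83 on the log2 scale, which is 2.67-fold and 3.55-fold. When the coding sequence was used as the length, Hes1 (4.47) and Heyl (4.47) came out level and Rbpj (4.92) took the first place, because most of the Heyl and Rbpj transcripts is noncoding. Hey1 stayed lowest of the 3 targets under each length. Hes1 is on chromosome 16 (30064384 to 30067796, plus strand), Hey1 on chromosome 3 (8663359 to 8667256, minus strand) and Heyl on chromosome 4 (123233556 to 123249875, plus strand). None of the 3 shares a 31-base word with another gene, and no annotated gene overlaps them.

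**Figure D1:**
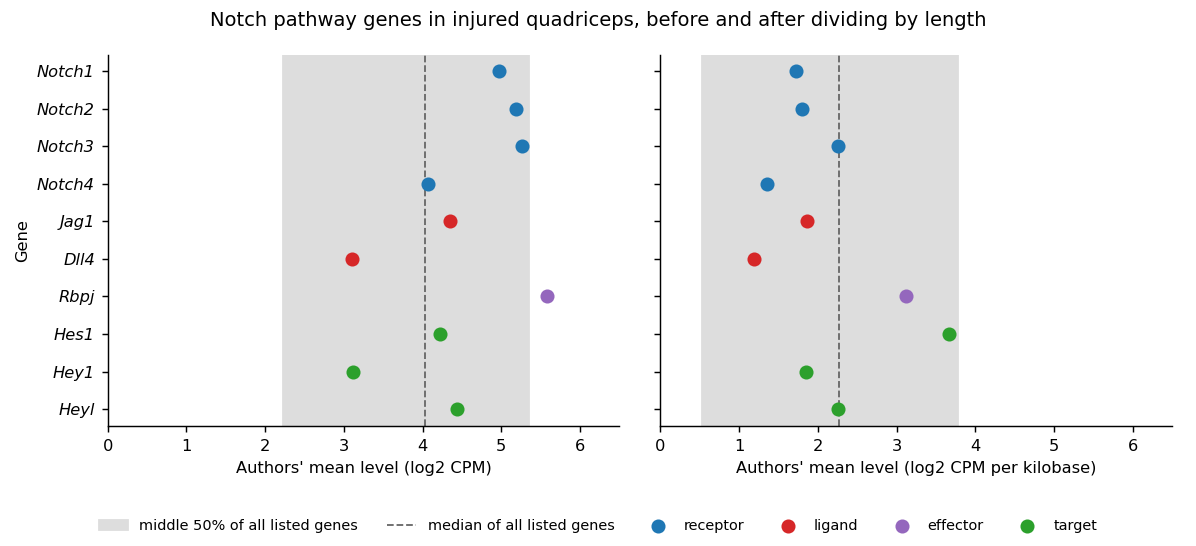
The authors' mean level of each member over both genotypes is plotted in log2 CPM (left) and in log2 CPM per kilobase of the longest coding transcript (right), 1 point per gene, coloured by role. The band is the interquartile range and the dashed line the median of all listed genes. Members are to be compared with each other only on the right, where Hes1 stands highest at 3.67 and Dll4 lowest at 1.19.

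Read in order of level per kilobase, the members ran from Hes1 (3.67) and Rbpj (3.12) through Heyl and Notch3 (both 2.26), Jag1 (1.86), Hey1 (1.85), Notch2 (1.80) and Notch1 (1.73) to Notch4 (1.35) and Dll4 (1.19). From Hes1 to Dll4 this is a range of 2.48 on the log2 scale, or 5.58-fold. Between Jag1 and Notch1, the 4 genes of the middle of this order lay within 0.14 of each other. They lay further apart on the other lengths. With the coding sequence Hey1 was at 3.28 and Notch1 at 2.05. With the median length Notch1 was at 2.65 and Notch2 at 1.80. The gap between Heyl and Notch3 was 0.0014 on this length only. Heyl minus Notch3 was -0.88 with the median length of the coding transcripts and 2.01 with the coding sequence. All 10 members fell inside the interquartile range of all listed genes, which ran from 0.53 to 3.78 log2 CPM per kilobase, and 8 of them were below the median of all genes at 2.28. With either of the other lengths 7 members were below the median of all genes, and with the coding sequence Notch4, at 1.51, fell under the lower quartile of 1.65.

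**Figure D2:**
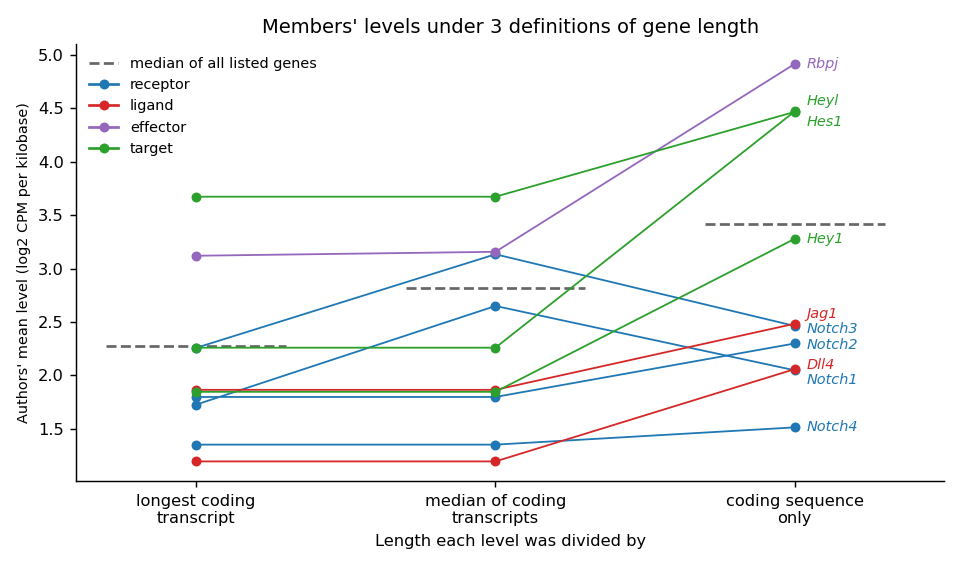
Each line follows 1 member across the 3 lengths by which its mean level was divided, with the level in log2 CPM per kilobase on the vertical axis and short dashed lines at the median of all listed genes for that length. Notch1 and Notch3 rise in the middle column, to 2.65 and 3.13, and Heyl and Rbpj rise in the right column, to 4.47 and 4.92, while Notch4 and Dll4 stay within the lowest 3 throughout.

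The wider pathway was described with 65 further genes in 8 roles, of which 57 are listed as spelled, 1 under an older symbol and 7 not at all. Their median was 2.68 log2 CPM per kilobase, beside 1.85 for the members and 2.28 for all genes, and 36 of the 57 were at or above the median of all genes. A gene that is not listed may have failed the authors' stated filter of 1 CPM in 3 samples or been absent from their annotation. It may also stand under a symbol that was not matched here. The lowest mean of the listed genes was -4.08 log2 CPM, and how the filter applies to these values was not tested.

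Besides Jag1 and Dll4, 4 of 6 other ligand genes are listed. Dlk1, a noncanonical ligand that is imprinted and active in growing muscle, was the highest of them at 3.11 log2 CPM per kilobase, followed by the Jagged ligand Jag2 at 2.89. Dll1, the Delta-class ligand of myogenic cells, was at 1.85, and Dlk2 was lowest at -1.62. Dll3 and Dner are not listed. Jag2 was thus above Jag1 by more than Jag1 was above Dll4, on the same scale.
Of 7 other genes grouped as targets, from the Hes and Hey families and related feedback genes, only 2 are listed. They were grouped by family or feedback role, and their induction by Notch was not tested. Nrarp, which encodes a feedback inhibitor induced by Notch, was at 1.96 log2 CPM per kilobase. With the coding sequence as the length it was at 4.87, above Hes1 and Heyl, both at 4.47. Hes6, a family member known for opposing Hes1 and promoting differentiation, was at 4.56, above Hes1 under each of the 3 lengths. Hes2, Hes3, Hes5, Hes7 and Hey2 are not listed, so that among the Hey genes Hey1 and Heyl alone are listed.

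Genes for the proteins that work with RBPJ in the nucleus are nearly all listed. The 8 co-activators had a median of 1.99 log2 CPM per kilobase and ran from Maml3, of the Mastermind family that holds the active complex together, at -0.01, to Snw1, also a splicing factor, at 4.77. With the median length of coding transcripts the acetyltransferase genes Kat2b, at 6.59, and Ep300, at 6.48, lay above Snw1. The 12 co-repressors listed as spelled had a median of 3.04, from Spen at 1.43 to Ctbp1 at 5.03. Tle5, the short member of the Groucho family, is listed under its older symbol Aes and lay higher than these, at 8.30. It was only grouped here with the co-repressors, and whether it acts as one was not tested. Most of these cofactors serve many transcription factors besides RBPJ.
The 10 genes of receptor cleavage are all listed, with a median of 3.58 log2 CPM per kilobase, above each of the 4 receptors. They include Adam10 at 3.52 and Adam17 at 3.27, the proteases of the first activating cut, and the subunits of gamma-secretase, which makes the second. Among those subunits Psenen was highest at 6.17, Ncstn was at 4.22 and Aph1c was lowest at -0.25. The 6 genes that add sugars to the receptors had a median of 2.27, from Eogt at 1.46 to Rfng at 3.27, but with the median length of coding transcripts Eogt, at 4.23, was the highest of them, and with the coding sequence Pofut1 was, at 4.69. The other fringe genes, Lfng at 2.08 and Mfng at 2.10, lay close together.
All 4 genes of ligand endocytosis are listed, from Neurl1b at 0.12 to Neurl1a at 5.45 log2 CPM per kilobase. So are the 11 genes of receptor turnover, which had a median of 2.59. The lowest of them was the Deltex gene Dtx1 at -3.004, and the highest was Nedd4 at 6.60, a ubiquitin ligase with many other substrates.

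**Figure D3:**
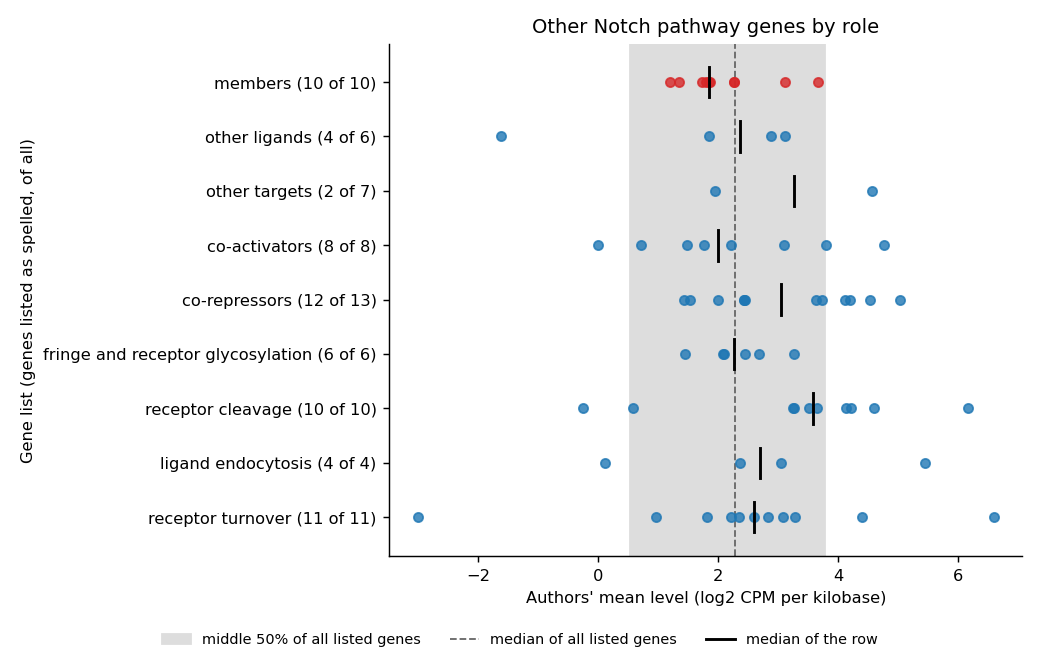
Each point is the authors' mean level of 1 gene in log2 CPM per kilobase (horizontal axis), with the members in red in the top row and the other pathway genes below, 1 row per role. Black bars are row medians, the band is the interquartile range of all listed genes and the dashed line their median. Genes of receptor cleavage centre at 3.58 and the members at 1.85.

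The labelled tissue was checked against marker genes. Muscle fibre genes were among the most abundant, with all 5 listed and Acta1, skeletal muscle actin, at 13.77 log2 CPM per kilobase. All 6 satellite cell genes are listed, with Pax7, their defining transcription factor, at 0.22, a range from -2.69 for Calcr, a gene of quiescent satellite cells, to 3.24 for Cdh15, and a median of 0.67. Cdh15 and Vcam1, the latter at 2.40 and not restricted to satellite cells, were above the median of all genes, and the other 4 were below it. With the coding sequence as the length Vcam1, at 3.04, was below the median of all genes at 3.42. The myoblast genes Myod1 and Myog were higher, at 4.65 and 5.79, and Mymk is listed under its older symbol Tmem8c at 4.29.
Cell types other than satellite cells in which Notch receptors and ligands are known to act were checked next. All 6 endothelial genes are listed, from 2.19 to 4.63, with Pecam1 at 4.63 and Cdh5 at 4.53 log2 CPM per kilobase. All 5 mural cell genes are listed, from -0.06 to 6.15, with Pdgfrb at 3.59. The members' levels overlapped those of both the satellite cell and the endothelial genes. Per kilobase of the longest coding transcript all 10 members were above Pax7, but only Hes1 was above Cdh15. With the coding sequence as the length 7 of them were above Pax7, at 2.17. On that length Rbpj (4.92), Heyl (4.47) and Hes1 (4.47) were above Cdh15, at 3.71. None of the members was above Pecam1 or Cdh5 under the 3 lengths. Per kilobase of the longest coding transcript, Hes1 and Rbpj were above the endothelial genes Kdr at 3.07 and Tek at 2.51. On that length Emcn at 2.19 was below 4 members. With the median length Notch3 (3.13) was also above Kdr (3.07), and with the coding sequence Heyl (4.47) was above Kdr (3.63). The part of each cell type in the level of any member was not tested.
Macrophage genes are listed as well, with Adgre1 under its older symbol Emr1 at 3.01, and the 3 genes of fibro-adipogenic progenitors ran from 2.95 to 8.07. Of 8 eosinophil genes 7 are not listed, Siglecf, Epx, Prg2, Ccr3, Il5ra, Ear1 and Ear6, and Ear2 was at 0.61. Of the 3 T cell genes Cd3g is not listed, and the other two ran from -0.97 to 0.09.

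**Figure D4:**
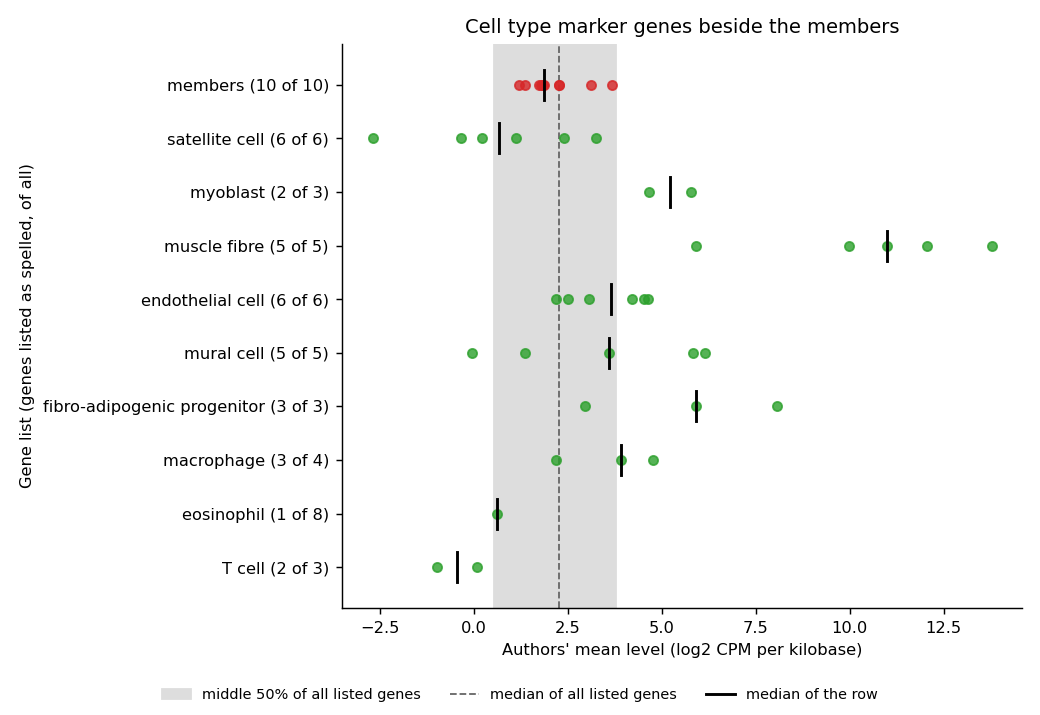
The authors' mean level in log2 CPM per kilobase (horizontal axis) is shown for each marker gene listed as spelled, 1 row per cell type, with the members in red at the top. Black bars are row medians, the band is the interquartile range of all listed genes and the dashed line their median. With the longest coding transcript as the length, the members, from 1.19 to 3.67, lie above the median of the satellite cell genes at 0.67. They lie under that of the muscle fibre genes at 10.99. The order against satellite cell genes depends on the length. With the coding sequence, which is not plotted, Notch1 (2.05), Dll4 (2.06) and Notch4 (1.51) were below Pax7 (2.17), Myf5 (2.56), Vcam1 (3.04) and Cdh15 (3.71).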

How the data were processed

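Poly(A)-selected RNA of injured quadriceps was sequenced from 6 mice, 3 WT and 3 ΔdblGATA. The authors assigned paired-end reads to transcripts with kallisto, which were combined per gene. The authors obtained CPM (read counts scaled to library size) with edgeR, required more than 1 CPM in 3 or more samples, took logarithms with TMM normalization and fitted limma. GRCm39 (mm39) is the build in the submitters' processing notes, and the annotation and the strand setting are not given in the sources used here. The deposited log2 values used here are the authors' mean log2 CPM per gene over both genotypes. The other 5 columns hold the authors' own comparison (fold change, moderated t, p-value before and after adjustment, and log-odds) and were not used. The genotype test was planned on values per mouse, which were not analysed here, and was not made.

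The table has 14016 rows, 1 of them without a symbol. A transcript length was found in GENCODE M21 (GRCm38) for 99.5% of the symbols: 13458 were spelled as there, and 487 more were reached by an older name. Log2 of the length in kilobases was subtracted from each level, with the longest coding transcript of a gene (any transcript type for noncoding genes). The arithmetic was tested on simulated levels. Sequence sharing was counted over 31-base words on either strand. Python 3.11.15 and pandas 2.3.3 were used. The depth per sample is unknown, and the 6 mice limit the precision of every mean.

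The members and gene lists were chosen with earlier results of these data known. The genes named are the 10 members, in each role of the wider pathway the genes with the highest and the lowest level, the genes not listed, and a defining gene or more for most of the cell types. Jag2, Dll1, Adam10, Adam17, Ncstn, Lfng, Mfng, Pofut1, Kat2b, Ep300, Calcr, Cdh15, Vcam1, Kdr, Tek, Emcn, Ear2, Myod1 and Myog were named outside this rule, after their values were seen. The same holds for Myf5, Mymk and Tle5.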

Additional observations from a re-analysis of the deposited data

How the results depend on the processing

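No paired analysis was possible because the values used are 1 mean per gene over all mice. For the same reason the limma fit, the replicate block, leaving out each mouse, other pseudocounts and a filter on values per mouse were not run. The alternatives that were run concern gene length and the genes ranked against. The members' median level, 1.85 log2 CPM per kilobase with the longest coding transcript, was 2.06 with the median length of the coding transcripts and 2.47 with the coding sequence. Their median percentile among all listed genes, 42.8, became 38.6 and 35.0 under these lengths, 42.2 among protein-coding genes and 32.7 among genes with a mean of at least 1 log2 CPM. The median of the other pathway genes, 2.68, became 3.51 and 3.72 under the same lengths, and 2.75 once older symbols were also matched, which added 1 gene to the 57. Larger values follow from dividing by a shorter length.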
